A study of Mus musculus with 12 samples.

Results

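Mitochondrial fatty acid oxidation was followed through 10 genes, Cpt1a, Cpt2, Slc25a20, Acadm, Acadl, Acadvl, Hadha, Hadhb, Acaa2 and Etfdh, in RNA of sorted mouse alveolar type 2 (AT2) cells, which make surfactant and renew the alveolar lining. The genes were chosen by name for their place in the pathway, with earlier results of these data known. All 10 were found by symbol among the 21878 genes of the table. Each was at or above 1 FPKM (fragments per kilobase of exon and per unit of sequencing depth) in all 12 libraries, so all 10 were among the 10675 genes tested. The study asked how autophagy, the lysosomal recycling of cell components that needs Atg5, shapes the metabolism of AT2 cells after lung injury. There were 4 groups of 3 libraries. AT2-PBS and AT2-BLM came from Atg5f/f mice, which carry a floxed but intact Atg5 gene, and Atg5-/- AT2-BLM came from Nkx2.1Cre; Atg5f/f mice. For Atg5-/- AT2-PBS the text of the paper does not state the Cre line. In Nkx2.1Cre; Atg5f/f mice the Nkx2.1 promoter drives Cre in the lung epithelium from its formation onwards, so that the deletion is neither limited to AT2 cells nor to the time of injury. PBS was the vehicle, and BLM is bleomycin, a drug that breaks DNA and injures the alveolar epithelium, given into the trachea at 2 U/kg. According to the methods the mice of the bleomycin experiments were male and 8 to 12 weeks old. The text of the paper places the sort at day 14 for 3 groups, and no day was found for the other one, Atg5-/- AT2-PBS. The sort took EpCAM+ cells that were negative for CD31, CD34, CD45, CD24 and Sca-1, and nothing in the sources used here says how many animals went into a library.

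Fatty acids are burned in the mitochondrial matrix. As acyl-CoA they cannot cross the inner membrane, so CPT1 on the outer membrane hands the acyl chain to carnitine, the carrier SLC25A20 exchanges acylcarnitine for carnitine, and CPT2 inside rebuilds the acyl-CoA. Each turn of the spiral then takes an acyl-CoA dehydrogenase (ACADVL, ACADL or ACADM, by chain length), a hydratase and a second dehydrogenase, both carried for long chains by HADHA in the trifunctional protein, and a thiolase, HADHB for long and ACAA2 for medium chains. Electrons of the first step pass through the electron transfer flavoprotein to ETFDH, which delivers them to ubiquinone. Malonyl-CoA, the product of the acetyl-CoA carboxylases that opens fatty acid synthesis, blocks CPT1, and the nuclear receptors PPAR and ERR with the coactivator PGC-1 are the textbook activators of the pathway. AT2 cells are best known for building fatty acids for surfactant phospholipid.

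The libraries differed in more than their labels. Depth, read from the steps of low FPKM values, lay between 0.93 and 1.15 times that of 1 AT2-PBS library, and log2 values correlated within groups at 0.938 to 0.987 across genes. The epithelial markers Epcam and Cdh1 were present in every library, whereas Sftpc, which defines AT2 cells, was listed at 0 in 11 libraries and at 112570 FPKM in AT2-BLM replicate 2. Of 12 AT2 markers, these 3 included, none but Sftpc was at 0 in any library. Their summed FPKM were 23524 to 35879 in AT2-PBS, 29356 to 33092 in Atg5-/- AT2-PBS and 32050 to 36008 in Atg5-/- AT2-BLM. In AT2-BLM replicates 1, 2 and 3 they were 41199, 153056 (with Sftpc) and 24254 FPKM. Atg5 was read at 8.37 to 10.1 FPKM in 5 of the 6 Atg5-/- libraries and at 6.72 FPKM in the other one, against 6.01 to 12.5 FPKM in the Atg5f/f libraries. Its groups did not overlap with BLM (8.37 to 8.84 against 9.97 to 11.1 FPKM) and overlapped with PBS, and neither difference was called, at -0.26 (SE 0.23) and -0.14 (SE 0.23), so the whole-gene value does not show the deletion. Summed FPKM of 12 liver markers were 3.37 and 6.75 in AT2-PBS replicates 3 and 2, 539.8 in AT2-PBS replicate 1, 247 to 773 in AT2-BLM, 173 to 1203 in Atg5-/- AT2-BLM and 1996 to 3387 in Atg5-/- AT2-PBS. The sums of 13 leukocyte and macrophage markers were 20.9 to 86.3, 77.2 to 189, 64.8 to 350 and 1601 to 1883 FPKM in AT2-PBS, AT2-BLM, Atg5-/- AT2-BLM and Atg5-/- AT2-PBS, with fibroblast and airway markers also highest in the last. Sums of 8 islet and exocrine pancreas markers were 3337 FPKM in AT2-PBS replicate 1 and 3294 and 3297 FPKM in Atg5-/- AT2-PBS replicates 1 and 2. In the remaining libraries they were 4.06 to 148 FPKM. The 4 Y-linked genes summed to under 1 FPKM in 7 libraries and to 14.2 to 20.9 FPKM in the other 5. The 7 were all 3 of Atg5-/- AT2-PBS, AT2-PBS replicate 1, AT2-BLM replicates 1 and 2 and Atg5-/- AT2-BLM replicate 1. For the BLM libraries among these, the values do not show the male sex that the methods give for the bleomycin experiments. Sex as read from these genes was thus not balanced between the groups. What these differences add to the results was not tested beyond the values given. In bulk RNA, fewer cells of a type and less RNA per cell cannot be told apart.

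The 10 genes spanned a wide range of levels on the per-length FPKM scale. Acaa2, the medium-chain thiolase, had the highest mean over the 12 libraries, 170 FPKM, and exceeded every other gene of the set in each library. Acadl, the long-chain dehydrogenase, followed at 79.6, Acadvl, for the longest chains, at 58.9 and Acadm, for medium chains, at 40.1 FPKM. Hadha and the carnitine carrier Slc25a20 had means of 30.5 and 29.1 FPKM and could not be ordered, since Hadha was the higher in 6 of 12 libraries. Etfdh had 24.2, Cpt2 14.8, Cpt1a 9.33 and Hadhb 7.88 FPKM. Cpt1a and Hadhb were not separated either, with Cpt1a above Hadhb in 7 of 12 libraries, whereas the other neighbours kept their order in 9 to 12 libraries. The subunits of the trifunctional protein were thus listed at unequal levels, Hadha at 3.08 to 4.63 times Hadhb in each library. Of the CPT1 isoforms, Cpt1a had the highest level in every library (4.40 to 17.1 FPKM, against 0.272 to 1.95 FPKM for Cpt1b and 0.172 to 5.34 FPKM for Cpt1c). Cpt2 and Cpt1a varied most, by 4.03 and 3.90 times between the lowest and the highest library, and the other 8 genes by 1.44 to 2.16 times.

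**Figure D1:**
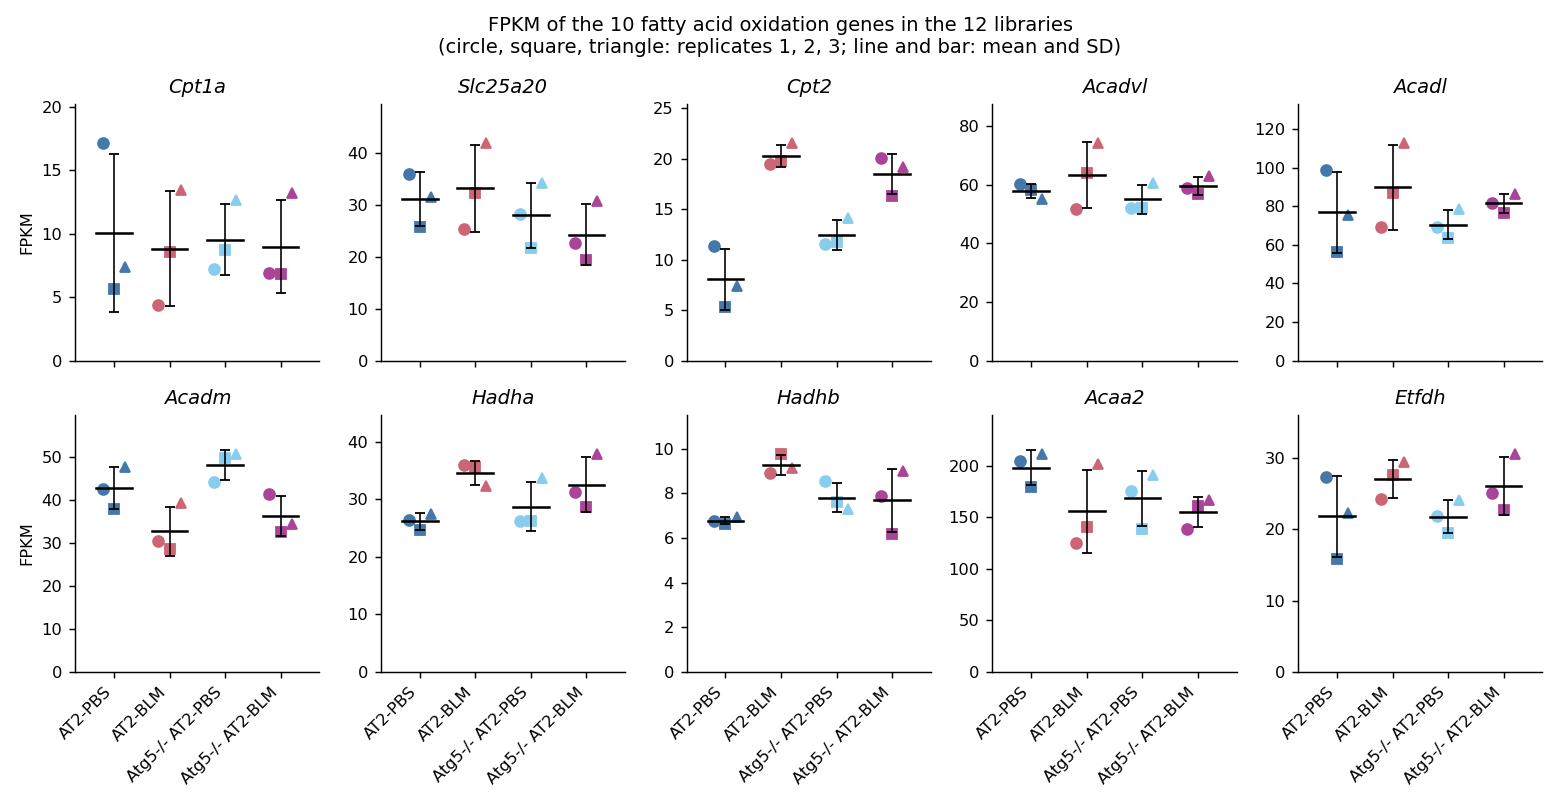
FPKM (y axis, from 0 in each panel) of the 10 genes in the 4 groups, with 1 symbol per library and the mean and SD of the 3 replicates. Cpt2 sits between 19.5 and 21.5 FPKM in AT2-BLM and between 5.35 and 11.3 FPKM in AT2-PBS, whereas Cpt1a spreads from 5.61 to 17.1 FPKM within AT2-PBS alone.

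The first comparison, AT2-BLM against AT2-PBS, asked which steps of the pathway moved with injury. A call needed at least a 1.4-fold change together with p under 0.05 before adjustment, the criteria of the study, in a limma fit of log2(FPKM + 1) over all 12 libraries, with the Benjamini-Hochberg adjusted p over all genes tested beside it. Of the 10 genes, 1 was called, Cpt2, which rose, while 28.4% of all genes tested were called (20.6% higher and 7.77% lower). The excess of higher calls, 2202 of 3031, depended on the scaling between libraries and was 1467 of 2770 with median-ratio scaling. The median of the 10 log2 differences was 0.17, the same as the median of all genes, also 0.17. Of the 10 genes, 7 had differences above 0 and 3 below.

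In the carnitine shuttle the inner-membrane enzyme, Cpt2, was higher after BLM and the other steps were not called. Cpt2 (chromosome 4, 107576586 to 107596215, minus strand, mm9) was read at 11.3, 5.35 and 7.43 FPKM in AT2-PBS and at 19.5, 19.7 and 21.5 FPKM in AT2-BLM. Every injured library lay above every uninjured one, and the injured libraries lay close together. Its log2 difference was 1.29 (SE 0.21, adjusted p = 0.00301 from limma), 2.44-fold on the FPKM + 1 scale, and ranged from 0.99 to 1.54 over 24 alternative settings, with adjusted p between 0.00105 and 0.0519. Cpt1a, the outer-membrane enzyme held to limit the rate of the pathway, was read at 17.1, 5.61 and 7.37 FPKM in AT2-PBS and at 4.40, 8.56 and 13.4 FPKM in AT2-BLM. Both groups spread over more than the distance between them, and the difference of -0.14 had a 95% interval from -1.06 to 0.78. Slc25a20 was read at 36.0, 25.7 and 31.4 FPKM in AT2-PBS and at 25.4, 32.2 and 41.9 FPKM in AT2-BLM, with overlapping ranges and a log2 difference of 0.08 (95% interval -0.43 to 0.58). Ratios within a library do not depend on a scale factor per library. Cpt2 over Slc25a20 was 0.208 to 0.315 in AT2-PBS and 0.514 to 0.768 in AT2-BLM, and Cpt2 over Cpt1a was 0.661 to 1.01 and 1.60 to 4.43. Neither pair of ranges overlapped, and each AT2-BLM library held more Cpt2 relative to the other shuttle genes than any AT2-PBS library. With this n of 3 no exact test of a ratio can go below p = 0.1.

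Liver markers also moved in this comparison, with 9 of 12 called higher, none lower and a median of 2.73, and liver expresses all 10 oxidation genes. Leukocyte and macrophage markers were called higher in 6 of 13 and lower in 1, fibroblast markers in none of 5, alveolar type 1 markers higher in 5 of 8 and airway markers lower in 4 of 5. The AT2-PBS library with 539.8 FPKM of liver markers had the highest Cpt2 of its group, 11.3 FPKM, and the AT2-BLM libraries with 247 to 773 FPKM had 19.5 to 21.5 FPKM. Without that AT2-PBS library, which also held 3337 FPKM of pancreas markers, the log2 difference of Cpt2 was 1.54, the highest value of the leave-one-out fits. The 3 libraries with the highest liver sums, those of Atg5-/- AT2-PBS, had less Cpt2 (11.5 to 14.1 FPKM) than any AT2-BLM library, but they also differed in genotype and in markers of other cell types. With the liver sum as a covariate, a setting added after the data were seen, the difference was 0.99 (adjusted p = 0.0519 from limma) and still called. Liver sums were 6.75 and 3.37 FPKM in AT2-PBS replicates 2 and 3, so liver level largely went with group. The part of liver RNA in the Cpt2 difference was not tested beyond these values.

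**Figure D2:**
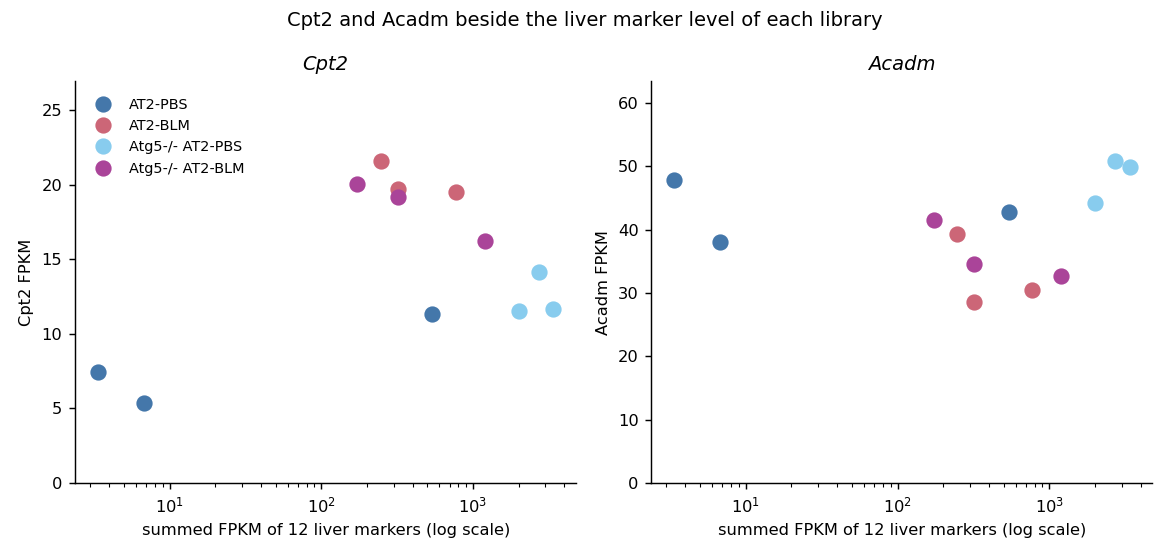
Cpt2 (left) and Acadm (right) in FPKM against the summed FPKM of 12 liver markers on a log scale, 1 point per library, coloured by group. Cpt2 is 5.35 to 11.3 FPKM in AT2-PBS, at liver sums of 3.37 to 539.8 FPKM, and 19.5 to 21.5 FPKM in AT2-BLM, at 247 to 773 FPKM. In Atg5-/- AT2-PBS it is 11.5 to 14.1 FPKM, at 1996 to 3387 FPKM. In Atg5-/- AT2-BLM it is 16.2 to 20.0 FPKM, at 173 to 1203 FPKM.

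The promoter of Cpt2 is shown because Cpt2 is the only one of the 10 genes called with BLM, beside that of Acadm, the gene with the largest difference below 0, and that of Hadhb, which it shares with Hadha. The sequences are the 250 bases before the gene's start in RefSeq (GRCm38.p6), and each occurs once in mm9. Capitals mark the hexamer AGGTCA in either orientation, the core of the elements bound by PPAR, RXR and ERR.
Cpt2, chr4:107923590-107923839, minus strand: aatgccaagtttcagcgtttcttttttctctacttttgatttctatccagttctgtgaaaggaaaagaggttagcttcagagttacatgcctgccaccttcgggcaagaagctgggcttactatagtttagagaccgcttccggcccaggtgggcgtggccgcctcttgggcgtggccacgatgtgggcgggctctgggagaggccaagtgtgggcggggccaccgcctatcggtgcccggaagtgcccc
Acadm, chr3:153944644-153944893, minus strand: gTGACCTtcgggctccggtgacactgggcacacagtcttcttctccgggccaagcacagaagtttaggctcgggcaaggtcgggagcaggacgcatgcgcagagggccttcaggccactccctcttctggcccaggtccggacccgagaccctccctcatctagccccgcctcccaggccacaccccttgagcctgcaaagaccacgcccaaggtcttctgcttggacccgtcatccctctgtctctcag
Hadhb, chr5:30155003-30155252, plus strand: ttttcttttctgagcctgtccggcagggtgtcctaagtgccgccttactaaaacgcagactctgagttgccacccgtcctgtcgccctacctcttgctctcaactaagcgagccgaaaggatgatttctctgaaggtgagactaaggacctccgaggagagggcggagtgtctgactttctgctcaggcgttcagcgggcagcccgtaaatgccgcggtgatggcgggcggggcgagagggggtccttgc
Promoters were in the RefSeq table for 9 of the 10 genes, all but Acaa2. In these windows, 250 bases before to 50 after the start and on both strands, AGGTCA occurred in 3 of the 9 (Acadm from -249 to -244, Acadvl from -87 to -82 and Cpt1a from -94 to -89), against 16.3% of the 32851 promoters of the table. The DR1 element, a pair of AGGTCA hexamers spaced by 1 base, occurred with at most 2 mismatches in Slc25a20 alone, from 6 to 18 after the start (3.86% of all promoters), and overlapped none of these hexamers. The ERR element TCAAGGTCA, which contains the hexamer, occurred in none (0.423% of all promoters). Neither the Cpt2 nor the shared Hadha and Hadhb window held any of these letters, which says nothing of sites elsewhere.

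None of the 3 acyl-CoA dehydrogenases was called, and the medium-chain enzyme came closest. Acadm (chromosome 3, 153585321 to 153607596, minus strand, mm9) was read at 42.7, 38.0 and 47.8 FPKM in AT2-PBS and at 30.5, 28.6 and 39.3 FPKM in AT2-BLM. Of the AT2-BLM libraries only replicate 3 reached into the AT2-PBS range, and the log2 difference was -0.38 (SE 0.16, adjusted p = 0.109 from limma), under the fold required. Relative to the median of all genes it was -0.56, and with median-ratio scaling between libraries, which brings that median near 0, Acadm was called lower (-0.55, adjusted p = 0.0224). Acadl was read at 98.6, 56.5 and 75.5 FPKM in AT2-PBS and at 69.3, 87.0 and 113 FPKM in AT2-BLM (log2 difference 0.23, 95% interval -0.23 to 0.69). Acadvl was read at 60.2, 58.1 and 55.2 FPKM in AT2-PBS and at 51.6, 63.9 and 74.2 FPKM in AT2-BLM (0.11, interval -0.20 to 0.43). Ranges of both overlapped, and Acadvl shares 976 exonic bases with Dvl2 on the opposite strand in the GENCODE annotation of mm9, so reads there could belong to either gene.

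Both subunits of the trifunctional protein were higher in AT2-BLM in every library, by less than the fold required. Hadha and Hadhb lie head to head on chromosome 5 (Hadha from 30444841 to 30481702 on the minus strand and Hadhb from 30481788 to 30511133 on the plus strand in mm9), with starts 86 bases apart, and their RefSeq promoter windows share 228 bases. Hadha was read at 26.5, 24.6 and 27.5 FPKM in AT2-PBS and at 36.0, 35.6 and 32.3 FPKM in AT2-BLM. Hadhb was read at 6.78, 6.62 and 6.91 FPKM in AT2-PBS and at 8.92, 9.75 and 9.11 FPKM in AT2-BLM. For both genes every AT2-BLM library lay above every AT2-PBS library, as it did for Cpt2, so that the groups did not overlap for 3 of the 10 genes, all 3 higher, against 40.2% of all genes tested (28.9% higher). The log2 differences were 0.39 (SE 0.15, adjusted p = 0.0856) for Hadha and 0.40 (SE 0.15, adjusted p = 0.0911) for Hadhb, both from limma. Relative to the median of all genes they were 0.22 and 0.23, and with median-ratio scaling, quantile normalization or scaling to Cdh1 neither had an unadjusted p under 0.05 (0.124 to 0.464).

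Acaa2, the thiolase at the end of the spiral, lay lower in 2 of 3 AT2-BLM libraries. It was read at 204, 179 and 211 FPKM in AT2-PBS and at 125, 141 and 201 FPKM in AT2-BLM. Replicates 1 and 2 of AT2-BLM lay under all AT2-PBS libraries and replicate 3 among them, and the difference was -0.37 (SE 0.19, adjusted p = 0.181 from limma). With median-ratio scaling Acaa2 was called lower (-0.55, adjusted p = 0.0412), as it was without AT2-BLM replicate 3 (-0.57). Its share of the summed FPKM of the 10 genes, which no scale factor per library changes, was 38.5% to 43.2% in AT2-PBS and 31.0% to 35.0% in AT2-BLM. Such a share also falls where other genes of the set rise. In Atg5-/- cells it overlapped, at 34.7% to 39.5% with PBS and 31.9% to 37.8% with BLM. Etfdh, the exit of electrons to the respiratory chain, was read at 27.3, 15.9 and 22.2 FPKM in AT2-PBS and at 24.2, 27.6 and 29.4 FPKM in AT2-BLM, with overlapping ranges (0.33, 95% interval -0.09 to 0.74). Without AT2-PBS replicate 1, the highest of its group, Etfdh was called higher (0.50).

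**Figure D3:**
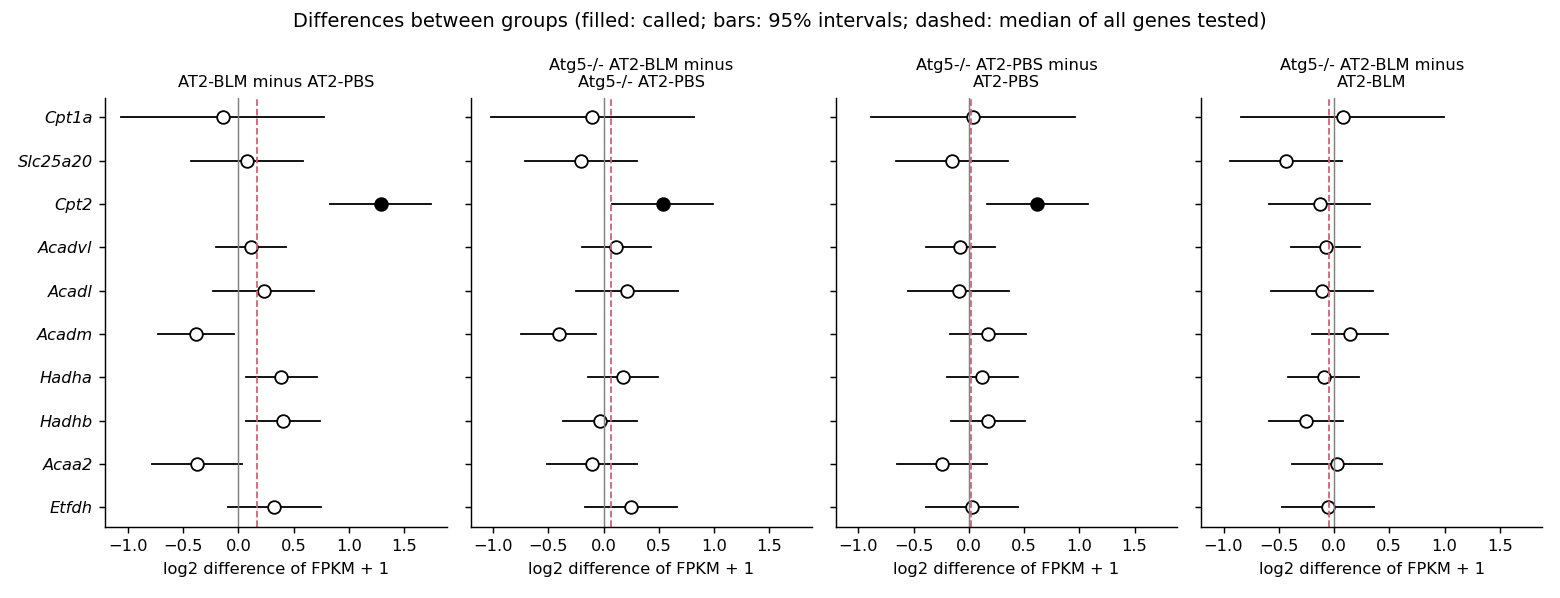
Log2 difference of FPKM + 1 (x axis) with its 95% interval for the 10 genes in 4 comparisons, filled where called, with the median of all genes tested as a dashed line. Cpt2 is called in the first 3 panels (1.29, 0.54 and 0.62), and no gene is in the last.

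Other genes of fatty acid handling, chosen as lists, give the setting. Of 20 tested genes of the rest of mitochondrial oxidation (acyl-CoA synthetases, carnitine enzymes, short-chain steps and electron transfer), 2 rose and 18 did not pass: Cpt1c, a brain isoform of CPT1, by 1.17 (adjusted p = 0.0342) and the carnitine acetyltransferase Crat by 0.55 (adjusted p = 0.115). The groups of Crat overlapped, and its call was lost on leaving out replicate 1 or 3 of AT2-PBS, and likewise replicate 2 or 3 of AT2-BLM (0.38 at the lowest). The median of that list was 0.12, and -0.048, -0.11 and -0.11 with median-ratio scaling, quantile normalization and scaling to Cdh1, which called 1 gene higher each and 1, 3 and 2 lower. In the peroxisome, which shortens very long chains, 4 of 15 genes were called higher and none lower, among them the thiolase Acaa1b (1.20), the oxidase Acox2 (0.95) and the bifunctional enzyme Ehhadh (0.61), with a list median of 0.16. Ehhadh, whose groups overlapped, had an adjusted p of 0.146 from limma and lost its call in 7 leave-one-out fits (0.48 to 0.81 over all of them). These calls stand beside 20.6% higher and 7.77% lower over all genes, and with median-ratio scaling, quantile normalization or scaling to Cdh1 the peroxisomal list had 2 genes called higher and 2 lower in each. Acaa1b went from 0.898 to 3.00 FPKM on average, Acox2 from 0.369 to 1.74 FPKM and Ehhadh from 5.15 to 8.26 FPKM, low levels of enzymes that are abundant in liver.

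Among 12 tested regulators, 1 rose and 4 fell, with a median of -0.26. Esrra, which encodes ERR-alpha, rose by 0.71 (adjusted p = 0.0310). Mlycd, the enzyme that destroys malonyl-CoA, fell by 1.74 and Acaca, a carboxylase that makes it, by 1.13, so that a remover and a maker of the CPT1 inhibitor both fell. Mlycd, whose AT2-PBS libraries averaged 7.94 ± 8.06 FPKM (SD, n = 3), was not called without AT2-PBS replicate 3 (-1.01) or AT2-BLM replicate 1 or 2 (-1.57 and -1.60), whereas Acaca was at 4.43 to 7.91 FPKM in AT2-PBS and 2.01 to 2.87 FPKM in AT2-BLM. Of 12 PPAR targets outside the spiral, none rose and 2 fell, the acyl-CoA thioesterases Acot1 (-1.45) and Acot2 (-1.19), near-identical neighbours whose reads counting can confuse. The list of 18 mitochondrial proteins outside the pathway had 10 genes called higher and none lower, but 4, 1 and 0 called higher with median-ratio scaling, quantile normalization and scaling to Cdh1. Its median was 0.50 (0.33, 0.27 and 0.27 under these scalings), and its leading genes were cytochrome c (Cycs, 0.81), Uqcrc1 of complex III (0.72) and the chaperone Hspa9 (0.71). The 10 oxidation genes, at a median of 0.17, thus stood between the list of regulators and that of mitochondrial proteins. Under these 3 scalings the median of the 10 genes was -0.0030, -0.060 and -0.065, and that of the regulators -0.35, -0.38 and -0.38. No test of one list against another was made.

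**Figure D4:**
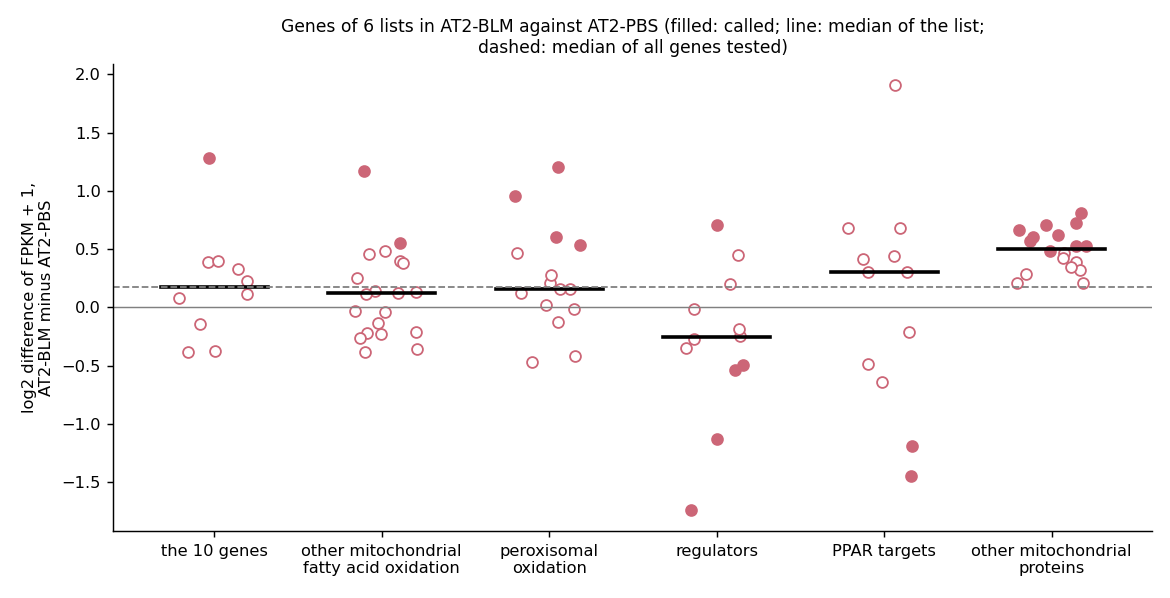
Log2 difference of FPKM + 1 between AT2-BLM and AT2-PBS (y axis) for each tested gene of 6 lists, filled where called, with the list's median as a line. The 10 oxidation genes have their median, 0.17, on the dashed line of all genes, and the 18 other mitochondrial proteins all lie above 0, with a median of 0.50.

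With Atg5 loss during BLM, the comparison on which the study's question turns, none of the 10 genes was called, while 5.16% of all genes tested were. At an unadjusted p under 0.05 the count was also 0 of 10 from limma, against 7.88% of all genes, and no gene had groups that did not overlap, against 13.4%. The differences ran from -0.43 to 0.15, with a median of -0.08 (all genes -0.05). Cpt2 was read at 20.0, 16.2 and 19.2 FPKM in Atg5-/- AT2-BLM against 19.5, 19.7 and 21.5 FPKM in AT2-BLM. All 6 injured libraries were above all 6 uninjured ones, and the difference between the genotypes after BLM was -0.13 (95% interval -0.59 to 0.33). Slc25a20 had the largest difference, -0.43 (95% interval -0.94 to 0.07), from 25.4, 32.2 and 41.9 FPKM in AT2-BLM and 22.6, 19.4 and 30.8 FPKM without Atg5. It was called lower (-0.61 in both cases) on leaving out replicate 1 of AT2-BLM or replicate 3 of Atg5-/- AT2-BLM, the lowest and the highest library of their groups.

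Hadhb, at 7.88, 6.19 and 8.99 FPKM, lay below AT2-BLM in 2 of 3 Atg5-/- AT2-BLM libraries (-0.25, interval -0.59 to 0.08). Hadha was read at 31.2, 28.6 and 37.9 FPKM in Atg5-/- AT2-BLM, on both sides of the AT2-BLM libraries (-0.09, interval -0.41 to 0.23). The dehydrogenases differed by 0.15 (Acadm), -0.11 (Acadl) and -0.07 (Acadvl), Acaa2 by 0.02, Etfdh by -0.06 and Cpt1a by 0.08. The interval of Cpt1a was again the widest, -0.84 to 1.00, and those of the other 5 lay within -0.57 and 0.49. Of the other lists, the regulators Acaca (0.78) and Sirt3 (0.49), a mitochondrial deacetylase of dehydrogenases of this pathway, and the PPAR target Txnip (0.74) were called higher, all at the adjusted p of 0.607 in limma. Both Sirt3 and Txnip lost their call without replicate 1 of Atg5-/- AT2-BLM, as Sirt3 did without replicate 2 and Txnip without replicate 3 of AT2-BLM (lowest values 0.41 and 0.50). For Acaca, with 2.87, 2.39 and 2.01 FPKM in AT2-BLM, the Atg5-/- AT2-BLM libraries gave 6.12, 5.43 and 3.38 FPKM. The groups of this gene, named here for its call, did not overlap, as for 13.4% of all genes tested.

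In uninjured mice, Atg5-/- AT2-PBS against AT2-PBS, 1 of the 10 genes was called, against 19.3% of all genes tested. The AT2-PBS libraries are also the controls of the first comparison. Cpt2 rose by 0.62 (SE 0.21, adjusted p = 0.0894 from limma), from 11.3, 5.35 and 7.43 FPKM to 11.5, 11.7 and 14.1 FPKM. The lowest library of the one group lay just above the highest of the other. Groups also did not overlap for Hadhb (6.62 to 6.91 against 7.28 to 8.53 FPKM, 0.18), which makes 2 of 10 genes against 28.9% of all. The other 8 differences ran from -0.24 for Acaa2 (204, 179 and 211 against 176, 139 and 191 FPKM) to 0.17 for Acadm (42.7, 38.0 and 47.8 against 44.2, 49.9 and 50.7 FPKM), each with an interval that included 0. The difference of Cpt2 was 0.39 and not called without AT2-PBS replicate 2, and 0.12 and not called with the liver sum as a covariate, which differed between these groups without overlap.

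Several genes of the lists around the pathway were called in that comparison. Of 12 PPAR targets 5 rose and 1 fell, led by the lipid-binding protein Fabp4 (3.20), the lipase inhibitor Angptl4 (2.04) and the liver transcription factor Creb3l3 (2.00). Pparg rose by 1.66, the peroxisomal genes Acaa1b, Abcd2 and Acox2 by 2.91, 1.31 and 1.11, and Acsl5, an acyl-CoA synthetase at 220 to 274 FPKM in AT2-PBS, fell by 0.66. All 12 liver markers and all 13 leukocyte and macrophage markers were called higher in the same comparison, by medians of 5.17 and 3.60. Liver is rich in Creb3l3, Acaa1b and Acox2, and macrophages of the alveolus in Fabp4 and Pparg. Their part in these values was not tested. In the same libraries the 10 oxidation genes, all of which liver also expresses, had a median difference of 0.03. Cpt2, the one called, was at 0.62, and at 0.12 with the liver sum as a covariate. What liver RNA adds to the 10 genes was not tested beyond these values.

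Within Atg5-/- cells, BLM against PBS gave 1 call among the 10 genes, against 18.4% of all genes tested, in a comparison that shares its PBS libraries with the one before. Cpt2 was again the gene, from 11.5, 11.7 and 14.1 FPKM to 20.0, 16.2 and 19.2 FPKM with no overlap, and its difference was 0.54 (SE 0.21, adjusted p = 0.158 from limma). Acadm fell short of the fold, as it did in Atg5f/f cells, with 44.2, 49.9 and 50.7 FPKM in Atg5-/- AT2-PBS and 41.6, 32.7 and 34.6 FPKM after BLM. Here its groups did not overlap either (-0.41, SE 0.16, adjusted p = 0.147 from limma), which makes 2 of 10 genes against 24.9% of all. Hadha differed by 0.18 and Hadhb by -0.03, and the other 6 genes by -0.20 to 0.24, none called. The ratio of Cpt2 to Slc25a20 did not overlap (0.409 to 0.540 with PBS, 0.622 to 0.888 with BLM). That of Cpt2 to Cpt1a did (1.12 to 1.60 and 1.45 to 2.90). The call of Cpt2 was lost on leaving out replicate 1 or 2 of the PBS group, replicate 1 or 3 of the BLM group (0.48 at the lowest), with median-ratio scaling (0.46) and with scaling to Cdh1 (0.10), the epithelial gene by which the study normalized its qPCR. Median-ratio scaling took the count of the 10 genes to 0, and scaling to Cdh1 called Acadm lower (-0.86), as did leaving out Atg5-/- AT2-BLM replicate 1 (-0.51).

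Of all genes called in these cells, 818 were higher and 1144 lower, and the lists around the pathway are to be read beside that. PPAR targets were called lower in 5 of 12, with Angptl4 at -2.35, Fabp4 at -2.05 and Creb3l3 at -1.55, peroxisomal genes in 3 of 15, with Acaa1b at -2.35, and the regulators Pparg (-1.26) and Lpin1 (-0.69) in 2 of 12. Lpin1 lost its call without replicate 3 of either Atg5-/- group (-0.53 at the weakest), and the peroxisomal Acox2 (-0.80) also without replicate 1 of Atg5-/- AT2-PBS (-0.64 at the weakest). Of the 20 other mitochondrial oxidation genes 3 were called higher (Cpt1c 1.12, the synthetase Acsl4 0.71 and Crat 0.52) and 1 lower (the synthetase Acsl1, -0.56), and none of the 18 other mitochondrial proteins was called. Crat (adjusted p = 0.205 from limma) lost its call in 6 leave-one-out fits (0.37 to 0.63 over all of them), Acsl1 (adjusted p = 0.159) without Atg5-/- AT2-PBS replicate 1 or Atg5-/- AT2-BLM replicate 2 (-0.40 at the weakest) and Acsl4 (adjusted p = 0.0599) without Atg5-/- AT2-BLM replicate 1 (0.46). Liver markers were called lower in 9 of 12 and leukocyte and macrophage markers in 13 of 13, from the high sums of Atg5-/- AT2-PBS, the control group of this comparison, and their part in these values was not tested.

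The interaction, the BLM difference in Atg5-/- cells minus that in Atg5f/f cells, tests whether genotype altered the response. It was called for 1 of the 10 genes, Cpt2 (-0.75, SE 0.30, adjusted p = 0.167 from limma), against 20.2% of all genes tested. Cpt2 averaged 8.04 ± 3.03 FPKM in AT2-PBS and 12.4 ± 1.47 FPKM in Atg5-/- AT2-PBS (SD, n = 3), and the corresponding BLM groups averaged 20.3 ± 1.13 and 18.5 ± 1.98 FPKM. The call was lost without AT2-PBS replicate 2, AT2-BLM replicate 3, Atg5-/- AT2-PBS replicate 3 or Atg5-/- AT2-BLM replicate 2 (-0.52 at the weakest). With the liver sum as a covariate it was -0.26 and with the Y-linked sum -0.55, neither called. Hadhb followed at -0.43 (adjusted p = 0.296 from limma) and Hadha at -0.21, and the other 7 genes lay between -0.28 and 0.27.

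The 10 genes were last compared by their profile across all 12 libraries. As a measure of likeness, each gene's log2 values were standardized over the libraries and compared by their root mean square difference, which is 0 for the same profile. Acadl and Etfdh were the closest pair of the 45 (0.452), followed by Cpt2 and Hadha (0.618), and the median over pairs was 1.05. From the mean profile of the 10 genes, Acadl (0.479) and Etfdh (0.518) differed least and Acadm (1.13) most. That mean profile was lowest in AT2-PBS replicate 2 and highest in AT2-BLM replicate 3, libraries of different groups. The genes outside the set whose profile came closest to it were Nfyc (0.458), Fam214b (0.495), Pwp1 (0.500), Tnpo3 (0.504) and Ndfip2 (0.509).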

How the data were processed

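Expression was measured by RNA-seq in 12 libraries of sorted AT2 cells, 4 groups of 3, grouped by GEO's labels. RNA was extracted with the mirVana kit and sequenced on a HiSeq after TruSeq stranded mRNA preparation. The deposited values are FPKM per gene, computed by the authors with Cufflinks. The study's methods name STAR, the mm9 genome and a DESeq normalization, and it could not be told whether that normalization is in these FPKM. The submitters' processing notes also list HISAT2 2.2.1.0, Trimmomatic 0.36, Cufflinks 2.2.1 and HTSeq 0.9.1. Whether counting used strand is not given in the sources used here, so a gene and an antisense partner (Acadvl and Dvl2, and Hadha and Fam59b, which share 78 exonic bases) may share reads. FPKM hold no counts, so depth is known only relative to other libraries, summed FPKM ran from 390141 to 549169, and the number of libraries limits the precision. For AT2-PBS replicate 3, 2 label fields give different numbers, and the title was used.

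Genes at 1 FPKM or more in at least 3 libraries were tested with limma 3.58.1 (R 4.3.3) on log2(FPKM + 1), with a mean-variance trend and all 12 libraries in 1 fit. All p-values are two-sided, and fold changes on this scale understate those of low genes. Intervals are 95%. Labels do not say whether libraries are separate animals, so p-values measure the spread between these libraries, which may be technical. Recovery was checked on simulated data. The 10 genes, the lists and the tests were chosen with earlier results of these data known. Named from the lists were up to 4 genes called in the list of other mitochondrial oxidation genes and up to 3 in each other list, those with the largest differences. A gene of the list of PPAR targets is not reported here. Alternatives were another pseudocount, no filter, other scalings, fewer groups, a replicate block, no trend, other thresholds, covariates and leaving out each library. Promoters came from RefSeq (GRCm38.p6), loci from GENCODE on mm9, figures from matplotlib 3.10.9 in Python 3.11.15.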

Additional observations from a re-analysis of the deposited data

Results flagged for a closer look

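For the following genes the difference between the BLM effect in Atg5-/- AT2 cells and the BLM effect in AT2 cells passed the test of that difference itself (interaction term, unadjusted p under 0.05 and at least 1.4-fold on the log2(FPKM + 1) scale, adjusted p from limma). The same call was met by 20.2% of all genes tested. Among the 10 oxidation genes Cpt2 passed, at -0.75 (adjusted p = 0.167). Of 20 other mitochondrial oxidation genes the acyl-CoA synthetase Acsl5 passed, at 0.74 (adjusted p = 0.0950). The other lists held 15 peroxisomal genes, 12 regulators, 12 PPAR targets and 18 other mitochondrial proteins. From each, only the called genes with the largest differences are named. Of the peroxisomal genes, the thiolase Acaa1b stood at -3.55 (adjusted p = 0.00183), the oxidase Acox2 at -1.75 (adjusted p = 0.0303) and the transporter Abcd2 at -1.26 (adjusted p = 0.00552). Of the regulators, Pparg stood at -1.70 (adjusted p = 0.0207), Acaca at 1.16 (adjusted p = 0.0696) and Sirt3 at 0.56 (adjusted p = 0.147). Of the PPAR targets, Fabp4 stood at -2.73 (adjusted p = 0.00525), Creb3l3 at -2.24 (adjusted p = 0.0125) and Angptl4 at -1.70 (adjusted p = 0.149). Of the other mitochondrial proteins, cytochrome c (Cycs) stood at -0.56 (adjusted p = 0.233) and the chaperone Hspd1 at -0.50 (adjusted p = 0.16).

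The same term was called lower for 12 of 12 liver markers, with a median of -5.21, and for 13 of 13 leukocyte and macrophage markers, with a median of -3.67. With the liver sum as a covariate, which was added after the data were seen, Cpt2 (-0.26), Acsl5 (0.45), Sirt3 (0.54), Angptl4 (-0.71), Cycs (-0.34) and Hspd1 (-0.46) were no longer called. Under it Acaa1b (-2.22), Acox2 (-1.85), Abcd2 (-1.21), Pparg (-2.21), Acaca (adjusted p = 0.280), Fabp4 (-2.29) and Creb3l3 (-1.25) were still called, with adjusted p from 0.0452 for Acaa1b to 0.426 for Creb3l3 in limma. The part of the other cell types' markers was not tested. Leaving out 1 library at a time, the call was lost in 8 fits for Cycs (-0.72 to -0.40 over all of them), 5 for Angptl4 (-2.17 to -1.34), 4 for Cpt2 (-0.52 at the weakest), 4 for Hspd1 (-0.61 to -0.41) and 3 for Sirt3 (0.48 to 0.64), and in none for the other genes named.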

How the results depend on the processing

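Over 24 alternatives the log2 difference of Cpt2 between AT2-BLM and AT2-PBS stayed above 0, called at unadjusted p under 0.05 and at least 1.4-fold in each. Of 29 differences of the 10 genes and other named genes that changed sign outside the leave-one-out fits, most came with another scaling between libraries. In AT2-BLM against AT2-PBS, all genes were called higher in 2202 of 3031, and in 1235 of 2633 with quantile normalization, 1467 of 2770 with median-ratio scaling and 986 of 2274 with scaling to Cdh1, where the median of all genes was -0.02, 0.03 and -0.01. There, in place of 1 gene, 3 of the 10 were called with quantile normalization, 3 with median-ratio scaling (Cpt2, Acadm and Acaa2 in both) and 2 with Cdh1 (Cpt2 and Acadm). Slc25a20 turned to -0.16, -0.095 and -0.16, Acadvl to -0.12, -0.060 and -0.12, and Acadl to -0.0085 with Cdh1. In Atg5-/- AT2-BLM against AT2-BLM (218 of 551 higher, 355 of 445 with Cdh1, 268 of 529 with median-ratio scaling), quantile normalization turned Acadl to 0.0087, Acadvl to 0.047, Hadha to 0.019 and Etfdh to 0.056, Cdh1 turned Cpt2 to 0.035, Acadl to 0.059, Acadvl to 0.097, Hadha to 0.074 and Etfdh to 0.11, and the Y-linked covariate turned Acaa2 to -0.057, with 827 of all genes called.

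With PBS (1507 of 2058 higher, 1177 of 2764 with quantile normalization and 2731 of 2810 with Cdh1, where the median of all genes was 0.34), scaling to Cdh1 called 4 of the 10 genes (Cpt2, Acadm, Hadha and Hadhb) and turned Slc25a20 to 0.23, Acadl to 0.30, Acadvl to 0.31 and Acaa2 to 0.15. Quantile normalization turned Cpt1a to -0.084 and Etfdh to -0.077, median-ratio scaling to -0.000586 and -0.018, the liver covariate to -0.74 and -0.25, and the Y-linked covariate turned Etfdh to -0.014. An adjusted p under 0.05, a fold of at least 2 and the liver covariate each left 0 of the 10 genes called, of 1195, 1113 and 946 genes in all. Within Atg5-/- cells (818 of 1962 higher, 1148 of 2217 with quantile normalization, 118 of 2562 with Cdh1), median-ratio scaling, an adjusted p under 0.05 and a fold of at least 2 each left 0 called, the last 2 of 923 and 914 genes, and Cdh1 called 2 (Slc25a20 and Acadm) and turned Hadha to -0.27. For the interaction (536 of 2156 higher, 1362 of 2485 with quantile normalization, 212 of 2007 with Cdh1), 0 of the 10 genes were called with an adjusted p under 0.05, a fold of at least 2, the Y-linked or the liver covariate, of 842, 1328 and 1060 genes for the first, second and last. Cdh1 called 2 (Cpt2 and Hadhb) and quantile normalization called Acaa2 in place of Cpt2. In AT2-BLM against AT2-PBS an adjusted p under 0.05 and a fold of at least 2 left 1856 and 982 of all genes, and Cpt2 in both, and in Atg5-/- AT2-BLM against AT2-BLM 1 and 101, with 0 of the 10. For all of these, what set the change beyond the scaling or threshold itself was not tested.

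Leaving out 1 library at a time gave 1 to 3 calls among the 10 genes for AT2-BLM against AT2-PBS (2 without AT2-PBS replicate 1, adding Etfdh at 0.50, and 3 without AT2-BLM replicate 3, adding Acadm at -0.52 and Acaa2 at -0.57), 0 to 1 for Atg5-/- AT2-BLM against AT2-BLM (Slc25a20), 0 to 1 with PBS (0 without AT2-PBS replicate 2), 0 to 1 within Atg5-/- cells (0 without Atg5-/- AT2-PBS replicate 1 or 2 or Atg5-/- AT2-BLM replicate 3, and Acadm in place of Cpt2 without Atg5-/- AT2-BLM replicate 1) and 0 to 2 for the interaction (0 without AT2-PBS replicate 2, AT2-BLM replicate 3, Atg5-/- AT2-PBS replicate 3 or Atg5-/- AT2-BLM replicate 2, and 2 without Atg5-/- AT2-BLM replicate 3). In these fits, 2640 to 3179, 379 to 807, 1758 to 2258, 1579 to 2326 and 1833 to 2507 of all genes were called, respectively. The fit with 3 of the 10 genes had the 2640, and that adding Etfdh the 3179. Slc25a20 was called where all genes called were 706 and 807, against 551 with every library. Signs changed in AT2-BLM against AT2-PBS for Cpt1a (-0.48 to 0.29), Slc25a20 (-0.10 to 0.25) and Acadvl (-0.0071 to 0.25), in Atg5-/- AT2-BLM against AT2-BLM for Cpt1a (-0.30 to 0.41), Acadl (-0.28 to 0.066), Acadvl (-0.21 to 0.047), Acaa2 (-0.12 to 0.22) and Etfdh (-0.17 to 0.036), with PBS for Cpt1a (-0.26 to 0.47), Slc25a20 (-0.31 to 0.011), Acadl (-0.29 to 0.10) and Etfdh (-0.18 to 0.20), and within Atg5-/- cells, where of the 10 genes only Cpt2, Acadm, Hadha and Hadhb were followed singly, for Hadhb (-0.14 to 0.10). With the replicate number as a block, the counts among the 10 genes were 1, 0, 1, 1 and 1, as without it, and 3014 of all genes were called in AT2-BLM against AT2-PBS. Same-numbered libraries deviated together at 0.19, 0.045 and 0.12 there, and in no comparison did every pair exceed 0.1. The labels give no pairing, and with 3 libraries per group these values cannot tell whether same-numbered libraries share more than a number.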
